A study of Drosophila melanogaster with 2 samples.

Results

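The regions described here are the 2024 pooled ChIP-seq regions that ranked directly below the peaks kept for Rel after the irreproducible discovery rate (IDR) procedure. They were chosen by their pooled signal value. The pooled relaxed list of 30000 regions was ordered by that value, ranks 2134 to 4266 were taken (2133 regions, as many as the IDR list holds), and 109 of these were dropped because they overlapped an IDR peak by at least 1 bp. They were set against the 2133 IDR peaks, which were identical to the 2133 highest pooled ranks, and against the 2133 lowest ranks of the same list (27868 to 30000). The libraries were 2 biological replicates of 1 group, numbered 2 and 3. Each came from whole wandering Drosophila melanogaster larvae of the third instar, both sexes together, of a transgenic line whose Rel carries a C-terminal GFP, and was precipitated with an antibody against GFP. No infection, other treatment or second genotype is named, and a control alignment that entered the authors' peak calling was not analysed here. The antibody sees Rel through its tag, tissues cannot be told apart in whole larvae, and no expression values were at hand to check the labelled stage.

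Rel, or Relish, is the NF-κB factor of the Imd branch of fly immunity. In infected flies its cleaved N-terminal part enters the nucleus and binds kB sites at antimicrobial peptide genes. The GFP here is at the C-terminus, and whether the antibody recovers that cleaved part was not tested. IDR compares the order of regions between replicate lists to set how many regions are kept. Here the kept list was the top of the pooled order, so the regions directly below it are next in pooled signal, and no IDR score of their own was used.

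The 8 windows printed next show what these regions look like in sequence. Each covers 100 bp on either side of the summit, the position of highest signal in the deposited list, and was read from the RefSeq assembly on build dm6, plus strand. The first 3 belong to the highest-ranked regions, among those that meet no annotated UTR and lie on chromosomes whose sequence is shown here, with the GA repeat GAGAGAG. These are letters that GAGA factor is known to bind, printed in capitals on either strand. The one in an intron of kis, a chromatin remodeller, lies at chr2L:246733-246933, the one in an intron of Eip75B, an ecdysone-induced nuclear receptor, at chr3L:18016589-18016789, and the one 152 bp from a start site of ct, a homeodomain factor, at chrX:7608176-7608376.
kis: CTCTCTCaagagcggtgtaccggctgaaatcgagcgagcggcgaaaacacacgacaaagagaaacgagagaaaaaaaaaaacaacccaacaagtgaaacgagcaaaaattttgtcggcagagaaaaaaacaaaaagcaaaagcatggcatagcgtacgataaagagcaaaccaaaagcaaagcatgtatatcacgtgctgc
Eip75B: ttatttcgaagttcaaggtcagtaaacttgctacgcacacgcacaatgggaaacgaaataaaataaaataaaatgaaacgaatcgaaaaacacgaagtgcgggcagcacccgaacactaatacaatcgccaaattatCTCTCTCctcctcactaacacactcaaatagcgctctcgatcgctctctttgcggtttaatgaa
ct: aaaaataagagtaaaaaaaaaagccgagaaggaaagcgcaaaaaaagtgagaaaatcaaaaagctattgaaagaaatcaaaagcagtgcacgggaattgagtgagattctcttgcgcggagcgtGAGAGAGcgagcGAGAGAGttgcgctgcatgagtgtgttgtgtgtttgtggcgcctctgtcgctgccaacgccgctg
The next 2 hold the CA repeat CACACACA, in capitals on either strand. They lie in an intron of osa, part of the Brahma remodelling complex, at chr3R:17710919-17711119, and between genes near ex, an upstream member of the Hippo pathway, at chr2L:429384-429584.
osa: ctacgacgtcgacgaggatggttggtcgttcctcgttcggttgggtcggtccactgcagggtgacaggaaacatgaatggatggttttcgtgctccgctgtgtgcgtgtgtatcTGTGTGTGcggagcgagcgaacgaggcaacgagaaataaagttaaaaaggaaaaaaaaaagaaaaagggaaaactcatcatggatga
ex: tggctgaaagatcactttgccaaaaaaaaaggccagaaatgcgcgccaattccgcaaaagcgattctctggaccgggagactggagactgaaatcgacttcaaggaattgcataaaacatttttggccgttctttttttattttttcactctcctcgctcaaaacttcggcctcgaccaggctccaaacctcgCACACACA
Another 2 hold a match to a broad kB consensus, in capitals. They lie in introns of CG4928, at chrX:16930587-16930787, and of Indy, a citrate transporter, at chr3L:18844250-18844450.
CG4928: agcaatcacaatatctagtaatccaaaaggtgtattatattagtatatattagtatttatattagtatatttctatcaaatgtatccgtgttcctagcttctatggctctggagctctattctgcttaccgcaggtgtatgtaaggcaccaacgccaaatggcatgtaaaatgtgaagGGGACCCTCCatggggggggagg
Indy: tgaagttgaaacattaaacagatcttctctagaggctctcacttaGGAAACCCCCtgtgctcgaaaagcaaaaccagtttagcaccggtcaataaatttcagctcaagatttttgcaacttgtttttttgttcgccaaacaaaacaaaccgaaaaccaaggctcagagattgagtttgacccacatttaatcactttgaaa
The last comes from the end of the rank range (rank 4258), between genes near CG13300 at chr3L:6358632-6358832, and holds none of these strings.
CG13300: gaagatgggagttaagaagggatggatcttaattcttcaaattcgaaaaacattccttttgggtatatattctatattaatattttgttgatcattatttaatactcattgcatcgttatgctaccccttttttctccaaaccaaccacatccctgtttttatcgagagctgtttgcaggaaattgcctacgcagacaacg

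The values that chose the regions form a continuous edge and are given as a description. The authors' signal value ran from 51.1 to 72.5 (median 59.4) in the below-list regions, from 72.5 to 674 (median 99.5) in the IDR peaks and from 16.5 to 17.2 (median 16.8) in the lowest ranks. The first region taken (rank 2134) had a signal of 72.5 and a q value of 0.00867, against 72.5 and 0.00821 for the last IDR peak (rank 2133). The last rank of the range (4266) had 51.1 and 0.0526, against 51.1 and 0.0526 for the next one (4267). At both edges the neighbours were alike to 3 digits in signal. The deposited q value was under 0.05 for 1994 of the 2024 below-list regions (98.5%), for all 2133 IDR peaks, for 0 of the lowest ranks, and for 14.1% of the pooled list. All 2024 below-list regions were 396 bp wide, and 86 of them (4.25%) overlapped another one, so neighbouring regions can share reads.

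The 10 highest-ranked below-list regions lay at genes of varied function. Rank 2134 was in an intron of MFS14, a transporter of the major facilitator family (2R:18800508-18800903). It ranked 2480 in replicate 2 and 4338 in replicate 3. Rank 2135 was the region in osa (3R:17710821-17711216), which ranked 956 in replicate 2 and 5172 in replicate 3. Rank 2136 was the one near ex (2L:429286-429681), with ranks of 2490 and 1353. The order of the replicates therefore differed from one region to the next even at the top of the range.

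Rank 2137 lay 128 bp from the start of RpL8, a protein of the large ribosomal subunit, and also upstream of msn, a kinase of the JNK pathway (3L:2587130-2587525). It ranked 4931 in replicate 2 and 728 in replicate 3. The promoter regions of Nsun5, an RNA methyltransferase, of Cyp6a21, a cytochrome P450, and of elg1, which unloads the DNA clamp PCNA, followed. The Cyp6a21 region (2R:14886787-14887182) ranked 1465 in replicate 2 and 10934 in replicate 3, and it lay 80623 bp from the nearest IDR summit. The elg1 region (3L:16131735-16132130) ranked 2425 and 1976. The other 3 of the 10 were near nrv1, a sodium pump subunit, near PIG-K, which attaches membrane anchors to proteins, and in kis. Of these 10 regions, 4 had their summit within 500 bp of a transcription start site (TSS).

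Most below-list regions were among the 4266 highest ranks of 1 replicate only. The replicate ranks come from the same reads as the pooled signal, so they describe how the regions came to their pooled rank and are given with no test. A region was looked up in each replicate's own relaxed list by the best-ranked region that overlapped it. Of the 2024 below-list regions, 500 (24.7%, 95% interval 22.8 to 26.6) had a match among the 4266 highest ranks of both replicates, against 1929 of the IDR peaks (90.4%), 15 of the lowest ranks (0.703%) and 10.7% of the pooled list. In that part of the list of replicate 2 but not of replicate 3 were 716 (35.4%), in that of replicate 3 but not of replicate 2 were 657 (32.5%), and in neither were 151 (7.46%). Neither replicate dominated: the median rank was 3704 in replicate 2 and 3707 in replicate 3, against 1093 and 1078 for the IDR peaks. No below-list region was missing from both lists, while 610 of the lowest ranks (28.6%) were. The list of replicate 2 lacked 12 of the below-list regions and that of replicate 3 lacked 49.

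**Figure D1:**
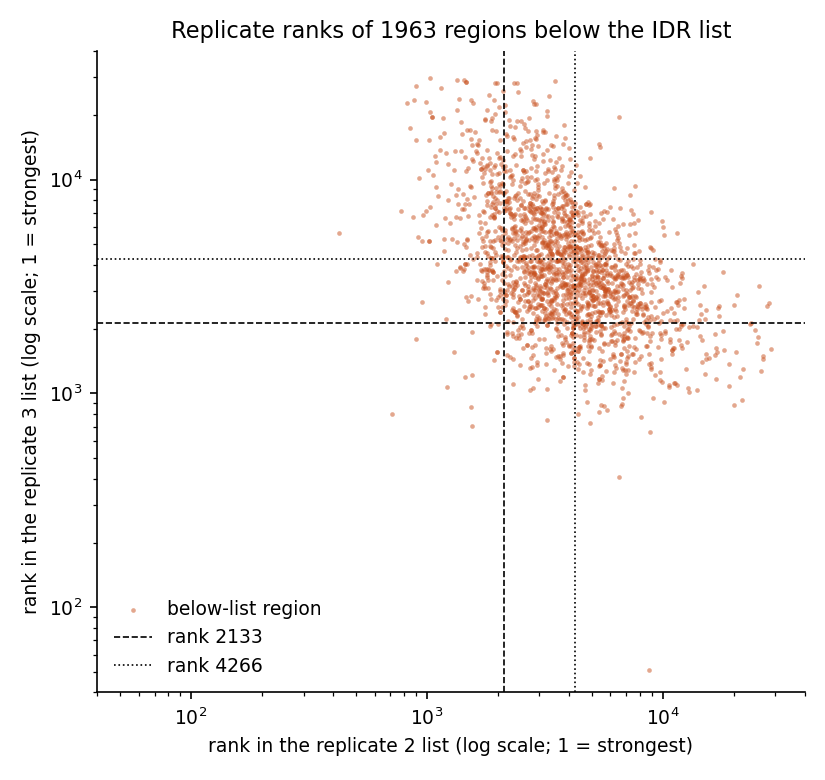
Rank of each below-list region in the replicate 2 list (x axis) against the replicate 3 list (y axis), both on log scales where 1 is the strongest, for the 1963 regions found in both lists; dashed lines mark rank 2133 and dotted lines rank 4266. The points spread along both arms away from the lower left corner, where 15 regions lie inside both dashed lines; the lone point at the bottom is the region near fok, ranked 51 in replicate 3.

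Only 15 below-list regions (0.741%) matched the 2133 highest ranks of both replicates, against 1280 IDR peaks (60.0%), 3 of the lowest ranks (0.141%) and 5.42% of the pooled list. The 5 whose worse replicate rank was best lay at otk, mtSSB, Mur2B with br, CG11357 and atos. The otk region (2R:12015439-12015834, pooled rank 2355), in an intron of a receptor kinase-like protein of Wnt signalling, ranked 712 in replicate 2 and 804 in replicate 3. The one nearest to mtSSB, the single-stranded DNA-binding protein of mitochondria (3R:16209617-16210012, pooled rank 2447), ranked 1218 and 1070. The one in shared introns of Mur2B and br (X:1616674-1617069, pooled rank 2223) ranked 1457 and 1189. These regions were high in both replicates although their pooled rank fell below the list.

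The CG11357 region (3L:4543074-4543469) ranked 1539 in replicate 2 and 861 in replicate 3. The atos region (2R:11637859-11638254), in a gene known for its role in macrophage invasion of tissue, ranked 1550 and 1223. Among the other 10, named after their values were seen, were regions nearest to CG10939, E(spl)mgamma-HLH, Atg8a, Cad99C, Snoo, CG5853 with 2 regions, p130CAS and CG42693. The 2 at CG5853 overlapped each other and matched the same replicate regions, so they are not separate cases. A match can also belong to a neighbouring IDR peak. The region near fok, named after its values were seen (2L:20085340-20085735, pooled rank 3741), lay 267 bp from an IDR summit and ranked 8761 in replicate 2 but 51 in replicate 3. Where the overlap had to cover at least 50% of the region, 423 (20.9%) had a match in the 4266 highest ranks of both replicates.

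At the other extreme were 61 regions (3.01%) found in 1 replicate list only, against 12 of the IDR peaks (0.563%), 1267 of the lowest ranks (59.4%) and 42.7% of the pooled list. The highest-ranked was in an intron of EDTP, a phosphoinositide phosphatase, nearest to the start of CG18467 (2R:17437103-17437498, pooled rank 2261). It ranked 864 in replicate 2 and was not in the list of replicate 3. The region near E(spl)m3-HLH, a Notch target (3R:26021061-26021456), ranked 1183 in replicate 2 and was absent from replicate 3, as was the promoter region of CG46339, which ranked 3348. The regions near CG9294 and in CG2991 went the other way, with ranks of 1714 and 706 in replicate 3 and no entry in replicate 2. A match overlaps its region and comes from reads that also entered the pooled list. The offset between their summits is thus limited by the matching and is given as a description. For the below-list regions the median offset was 16 bp over the 2012 matched in replicate 2 and 27 bp over the 1975 matched in replicate 3. It was 10 and 20 bp for the IDR peaks and 43 and 60 bp for the lowest ranks. The 90th percentiles were 148 and 173 bp, against 99 and 110 bp for the IDR peaks and 256 and 267 bp for the lowest ranks.

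Position relative to genes was not used to choose the regions (position relative to IDR peaks was, through the 109 dropped overlaps), and here the below-list regions were closer to the IDR peaks than to the lowest ranks. Summits within 500 bp of a protein-coding TSS numbered 740 of 2024 (36.6%, 95% interval 34.5 to 38.7), against 888 of the IDR peaks (41.6%), 269 of the lowest ranks (12.6%) and 22.2% of the pooled list. They exceeded the lowest ranks by 23.9 percentage points (95% interval 21.4 to 26.5). Relative to the IDR peaks they differed by -5.07 points (-8.02 to -2.10). Intervals here and throughout cover counting error over regions, which are not replicates. To see the spread between replicates, the same ranks were taken from each replicate's own list, leaving out those that overlapped its 2133 highest. The promoter share was then 41.0% in replicate 2 and 36.2% in replicate 3, against 41.9% and 41.1% for the 2133 highest ranks and 12.8% and 13.3% for the lowest. The gap to the lowest ranks was thus present in both replicates, while the gap to the highest ranks was -4.91 points (-7.86 to -1.94) in replicate 3 and -0.960 points (-3.96 to 2.05) in replicate 2.

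Coding sequence held 13 below-list summits (0.642%, 95% interval 0.342 to 1.10), against 1 IDR summit (0.0469%), 193 of the lowest ranks (9.05%) and 5.13% of the pooled list. Below-list minus lowest ranks was -8.41 points (-9.73 to -7.17), and in the replicates' own lists it was -12.3 and -9.68. Below-list minus IDR peaks was 0.595 points (0.251 to 1.05). In replicate 2 alone it was 0.407 points (0.0705 to 0.832), and in replicate 3 alone its interval included 0 (0.262, -0.125 to 0.697). The 5 highest-ranked of the 13, named after their values were seen, lay in CG5895, CG43245, bin3, Tab2 and LanA, a laminin chain. The Tab2 summit is in an adaptor of the Imd kinase Tak1 (2R:19299915-19300310, pooled rank 2890, ranks 3432 in replicate 2 and 2966 in replicate 3). GC in the 5 windows varied, at 34.3% in CG5895, 41.3% in CG43245, 67.7% in bin3, 61.7% in Tab2 and 49.8% in LanA. The mean was 40.1% ± 7.63 (SD over the 2024 windows).

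Introns held 873 below-list summits (43.1%), against 41.0% of the IDR peaks, 43.9% of the lowest ranks and 44.7% of the pooled list. Both differences had intervals that included 0, but in the list of replicate 3 the difference from the highest ranks was 3.65 points (0.649 to 6.64). In the list of replicate 2 it was -0.277 points (-3.27 to 2.72). Between genes lay 302 (14.9%), against 12.7% of the IDR peaks, 27.2% of the lowest ranks and 21.2% of the pooled list. The difference from the lowest ranks was -12.3 points (-14.7 to -9.82), and that from the IDR peaks was 2.26 points (0.167 to 4.37), with an interval that included 0 in either replicate alone. The 3′ UTR held 31 (1.53%), against 0.797% of the IDR peaks, 3.66% of the lowest ranks and 3.29% of the pooled list. The difference from the lowest ranks was -2.13 points (-3.12 to -1.17). From the IDR peaks it was 0.735 points (0.0794 to 1.44), but in each replicate alone the interval included 0. There it was 0.506 points (-0.123 to 1.18) in replicate 2 and 0.655 points (-0.0546 to 1.40) in replicate 3.

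**Figure D2:**
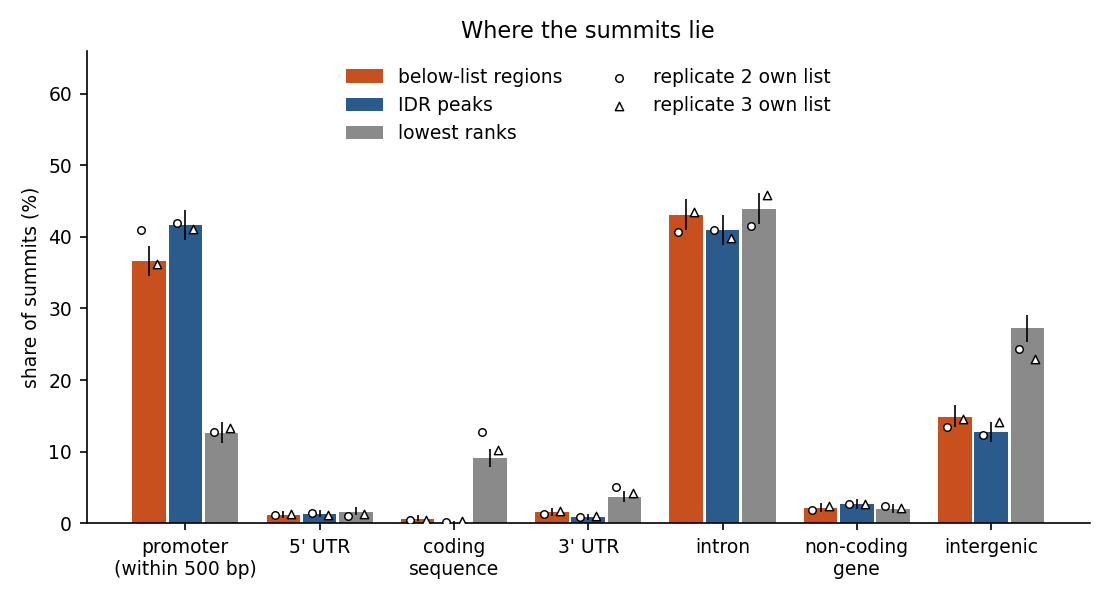
Share of summits (y axis, %) in each position class for the below-list regions, the IDR peaks and the lowest ranks; bars are the pooled lists with 95% exact intervals, circles and triangles the same ranks of replicate 2 and replicate 3. In the promoter class the below-list bar stands at 36.6%, close to the IDR bar at 41.6% and far above the lowest ranks at 12.6%, and in coding sequence it stands at 0.642% against 9.05% for the lowest ranks.

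Promoter summits of the below-list regions sat mostly upstream of the start, but less often than those of the IDR peaks. Of the 740, 516 were upstream of the nearest TSS (69.7%, 95% interval 66.3 to 73.0), against 697 of 888 in the IDR peaks (78.5%) and 146 of 269 in the lowest ranks (54.3%). This gave a difference of -8.76 points (-13.0 to -4.49) from the IDR peaks and of 15.5 points (8.68 to 22.2) from the lowest ranks. The median position was -88 bp, against -123 bp and -42 bp. In bins of 100 bp, the below-list summits peaked from -200 to -100 bp with 8.70% of all summits and held 8.45% in the bin next to the TSS. The IDR peaks had 12.5% and 8.16% there, and the lowest ranks 1.31% and 1.88%. The IDR profile thus fell off sharply towards the start while the below-list profile was level over both bins.

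Windows of 100 bp either side of the summits were searched on both strands for 10 short strings. A match says that the letters are there, not that a protein binds, and the absence of a string says nothing about a factor. GAGAGAG was found in 194 below-list windows (9.58%, 95% interval 8.34 to 11.0), against 236 IDR windows (11.1%), 53 of the lowest ranks (2.48%) and 4.95% of the pooled list. The difference from the lowest ranks was 7.10 points (5.68 to 8.58), and it was 5.72 and 7.06 points in the lists of replicates 2 and 3. Against the IDR peaks it was -1.48 points with an interval that included 0 (-3.33 to 0.376). In replicate 2 alone it was -3.70 points (-5.57 to -1.82), and in replicate 3 alone -0.302 points (-2.13 to 1.53). Windows at promoters held the repeat more often than others, in 102 of 740 (13.8%) against 92 of 1284 (7.17%). In the IDR peaks these shares were 15.0% and 8.27%, and in the lowest ranks 4.09% and 2.25%, so the gap to the lowest ranks was there in both positions.

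The GA repeat was more frequent around the summits than farther out. In 100 bp bins out to 1000 bp on both sides, 5.73% of the below-list regions had a repeat in the bin directly left of the summit and 4.89% in the one directly right of it, while the outermost bins each had 2.12%. The next bins out, from 100 to 200 bp, had 4.59% on the left and 4.89% on the right, so the rise was broad. The IDR peaks had 7.22% and 5.86% beside the summit, more in the next bins out (7.83% and 7.03%), and 2.53% and 1.92% in the outermost bins. The lowest ranks had 1.13% and 1.45% beside the summit and 1.17% and 1.13% at the edges, with no rise at the centre. The below-list windows at kis, Eip75B and ct shown above are examples, with 1, 1 and 2 runs of the string.

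**Figure D3:**
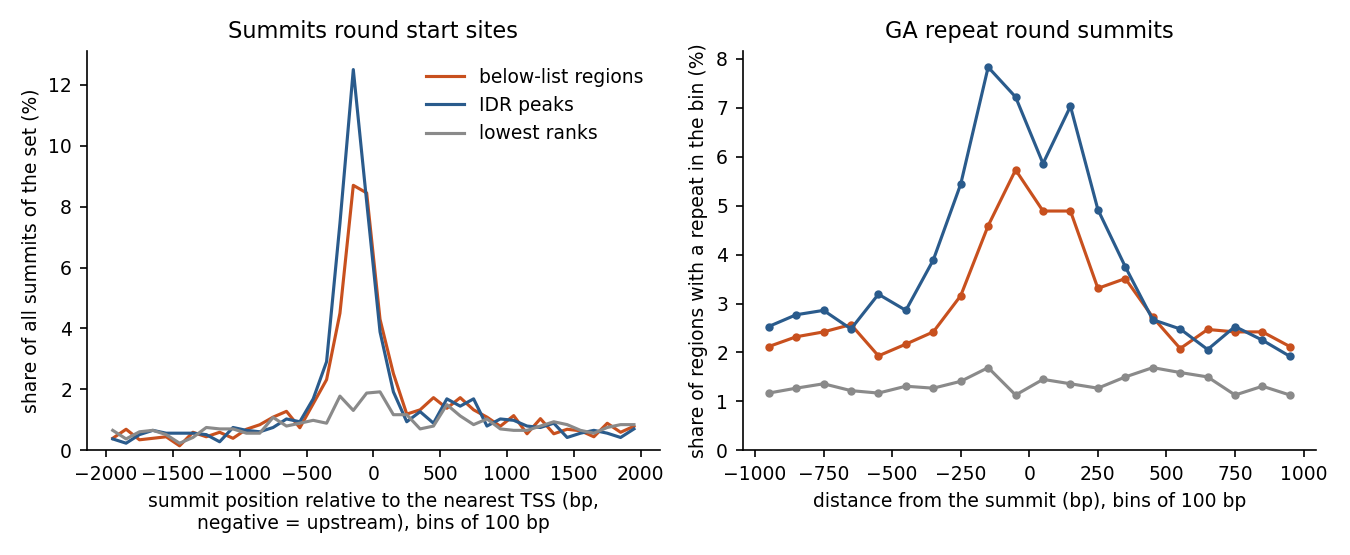
Left, position of summits relative to the nearest TSS (x axis, bp, bins of 100 bp) as a share of all summits of the set (y axis, %); right, share of regions with the GA repeat in each bin of 100 bp around the summit (y axis, %). The below-list curve has a peak upstream of the TSS that reaches 8.70%, and a rise of the repeat at the summit to 5.73%, where the lowest ranks stay at 1.13%.

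Matches to the broad kB consensus, the letters bound by NF-κB dimers, were rare in all sets. They were found in 23 below-list windows (1.14%, 95% interval 0.722 to 1.70), against 20 IDR windows (0.938%), 36 of the lowest ranks (1.69%) and 1.59% of the pooled list. Both differences had intervals that included 0, at 0.199 points (-0.433 to 0.851) from the IDR peaks and -0.551 points (-1.29 to 0.180) from the lowest ranks, and the same held in each replicate's own list. The 5 highest-ranked below-list regions with a match lay in introns of shn, a zinc finger factor of Dpp signalling, of CG4928 and of Indy, at the promoter of Cam, which codes for calmodulin, and near CG32986. The shn region (2R:11185571-11185966, pooled rank 2324) ranked 2820 in replicate 2 and 3052 in replicate 3. The Cam region (2R:12263983-12264378, pooled rank 2675) ranked 4087 and 2540. The Indy region ranked 2045 and 5205, and the CG4928 region 4989 and 3569. Of these 4, those in shn and Indy ranked higher in replicate 2 and those at Cam and in CG4928 in replicate 3.

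Other strings separated the below-list regions from the lowest ranks more than from the IDR peaks. CACACACA was in 155 windows (7.66%), against 9.38% of IDR windows and 4.22% of the lowest ranks, a difference of -1.72 points (-3.42 to -0.0166) from the IDR peaks and of 3.44 points (2.01 to 4.90) from the lowest ranks. In the list of replicate 2 the difference from the highest ranks was -2.67 points (-4.44 to -0.890), and in that of replicate 3 it was 0.636 points, with an interval that included 0. It occurred in 5.60% of the pooled list. AAAAAAAA was in 389 windows (19.2%), against 19.8% and 12.8%, with 15.9% in the pooled list. Its difference from the highest ranks was -2.81 points (-5.15 to -0.459) in replicate 2 and -2.29 points (-4.64 to 0.0688) in replicate 3. AGATAA, the letters bound by GATA factors, was in 283 (14.0%), against 12.2% and 11.4%, with 12.6% in the pooled list. The difference of AGATAA was 2.59 points (0.567 to 4.62) from the lowest ranks and 1.79 points (-0.257 to 3.85) from the IDR peaks. Against the highest ranks, replicate 2 alone gave 2.04 points (-0.0196 to 4.10) and replicate 3 alone 2.72 points (0.662 to 4.78). A window can hold several of these strings, as at osa and ex, which carried both the CA repeat and an A run. Mean GC was 40.1% ± 7.63 in the below-list windows, 39.2% ± 7.85 in the IDR windows and 41.9% ± 8.18 in the lowest ranks (SD over windows), so composition moved with the strings and its part in them was not tested. The mean share of bases soft-masked in the assembly was 22.3% in the below-list windows and 23.9% in the IDR windows. It was 16.8% in the lowest ranks and 19.3% in the pooled list. The part of masked sequence in the strings was not tested either.

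The 500 regions in the 4266 highest ranks of both replicates were also set beside the other 1524. Promoter summits made up 34.8% of the 500 and 37.1% of the rest, a difference of -2.34 points (-7.07 to 2.56). These 500 were set apart by replicate ranks, which share their reads with the pooled signal, so the values are a description. Both the share high in both replicates (38.8% up to rank 3199 and 11.1% after it) and the GA repeat (11.2% and 7.98%) fell with pooled rank. The GA repeat was in 60 of the 500 and in 134 of the 1524, a difference of 3.21 points (0.224 to 6.62). The run AAAAAAAA went the other way, in 15.6% and 20.4% (-4.81 points, -8.40 to -0.852). Of the other 7 features compared, none had a difference whose interval left out 0.

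Along the whole list, promoter share and GA repeat fell over the first blocks, and the below-list ranks were one step of that fall. In consecutive blocks of 2133 pooled ranks, the promoter share was 41.6% in block 1 (the IDR list), 36.8% in block 2 (the below-list range with the 109 dropped regions put back), 31.6% in block 3 and 29.9% in block 4, and it was 12.4% in block 14. Coding summits were 0.0469%, 0.609%, 0.563% and 1.36% in the first 4 blocks and 8.81% in block 14. The GA repeat was in 11.1%, 9.85%, 7.92% and 6.24% of windows in the first 4 blocks and in 2.44% in block 14. The step in promoter share from block 1 to block 2 was no larger than that from block 2 to block 3, and the same was true of the GA repeat. Coding summits differed: their intervals in block 1 (0.00119% to 0.261%) and block 2 (0.325% to 1.04%) did not overlap, while blocks 2 and 3 had nearly the same share. Block 1 held only 1 coding summit. In the list of replicate 3 alone, the below-list difference from the highest ranks had an interval that included 0 (0.262 points, -0.125 to 0.697).

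**Figure D4:**
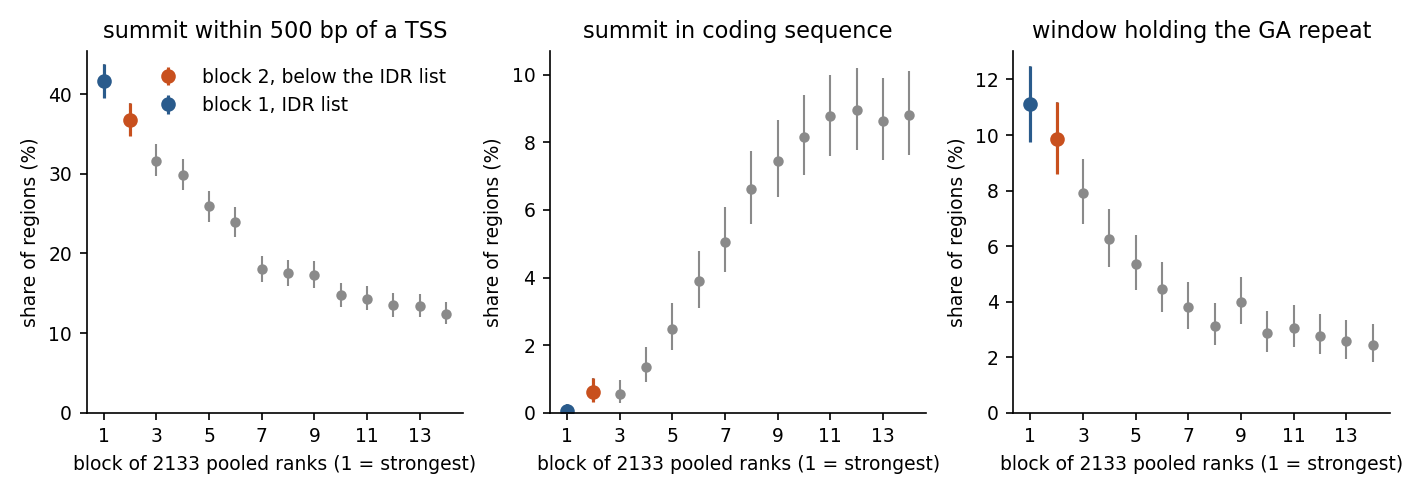
Share of regions (y axis, %) with a summit within 500 bp of a TSS, with a summit in coding sequence and with the GA repeat, in consecutive blocks of 2133 pooled ranks (x axis, 1 is the strongest), with 95% exact intervals. Block 2, which holds the below-list regions, lies between block 1 (the IDR list) and block 3 in promoter share (36.8%) and in the GA repeat (9.85%).

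The below-list regions lay near IDR peaks more often than the lowest ranks did. The rule itself used part of this distance, since candidates that overlapped an IDR peak had been dropped. The median distance to the nearest IDR summit was 8088 bp, against 6284 bp between an IDR summit and the next one and 30411 bp for the lowest ranks. Within 5000 bp were 794 (39.2%, 95% interval 37.1 to 41.4), against 983 of the IDR peaks (46.1%) and 306 of the lowest ranks (14.3%), a difference of 24.9 points (22.3 to 27.5) from the lowest ranks. Within 1000 bp were 157 (7.76%). The nearest ones besides that at fok, named after their values were seen, were in eff at 478 bp and in sbb at 493 bp. The density on the X chromosome was 1.04 times that on the large autosomes (95% interval 0.923 to 1.16), against 0.953 for the IDR peaks and 0.892 for the lowest ranks. It was 1.02 in the list of replicate 2 and 1.01 in that of replicate 3.

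A gene was taken as reached where it contained a summit or had one in the 1000 bp before its start. The below-list regions reached 1463 of 13945 protein-coding genes (10.5%). Of these, 495 were also reached by an IDR peak, which is 33.8% of the 1463 and 33.3% of the 1485 genes of the IDR peaks. Of all protein-coding genes, IDR peaks reached 10.6% and the lowest ranks 9.54% (1331 genes), so the below-list share was near that of both. The other 968 (6.94% of all genes) were reached by below-list regions but not by IDR peaks. Long genes are reached more easily. The median length was 8182 bp for genes reached by below-list regions, 7399 bp for those of the IDR peaks and 14491 bp for those of the lowest ranks. It was 20688 bp for genes reached by both below-list regions and IDR peaks, and 2166 bp for all genes. One below-list summit was found in 1101 genes and 3 or more in 148. The most were in Eip75B (9 below-list and 11 IDR summits over 113744 bp), in tkv, a receptor for the morphogen Dpp (9 and 4 over 52385 bp), and in shn (7 and 12 over 58309 bp). Mnt, CG1677 and Snoo also had 7.

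None of 15 antimicrobial peptide genes and none of 12 Bomanin genes, the induced effectors of Imd and Toll immunity, was reached by a below-list region or by an IDR peak. These genes are short, with median lengths of 483 and 450 bp against 2166 bp for all genes, and the part of length in these zeros was not tested. The lowest ranks reached 0 of the antimicrobial peptide genes and 1 of the Bomanin genes. Of 29 genes of the Imd pathway, 6 were reached by below-list regions and 5 by IDR peaks, with 3 in common (dnr1, eff and Tab2). The lowest ranks reached 1 of the 29. For comparison, 10.5% of all protein-coding genes were reached by below-list regions and 9.54% by the lowest ranks. The list's median gene length was 3461 bp against 2166 bp. At dnr1, a repressor of the pathway, the below-list region had pooled rank 2201 and ranks of 6241 in replicate 2 and 1255 in replicate 3, and the gene also held 3 IDR summits. In eff, a ubiquitin-conjugating enzyme, the region (3R:14738028-14738423) ranked 1434 and 7293. The members of the list that below-list regions added were PGRP-LF, a decoy receptor, akirin, a nuclear cofactor of Rel, and pirk, an inhibitor of the receptor PGRP-LC, with best pooled ranks of 2945, 3260 and 3525.

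Of 18 genes of the Toll pathway, 3 were reached by below-list regions, 6 by IDR peaks and 2 by the lowest ranks. The median gene length in the list was 2826 bp. Of all genes, 10.5% were reached by below-list regions and 9.54% by the lowest ranks. The region at the promoter of cact, the fly IκB (2L:16324884-16325279, pooled rank 2399), ranked 1830 in replicate 2 and 3778 in replicate 3. That at the promoter of dl, an NF-κB factor (2L:17450545-17450940, pooled rank 2441), ranked 2794 and 1330, and dl held no IDR summit. That in an intron of Dif, the NF-κB factor next to dl (2L:17430033-17430428, pooled rank 2902), ranked 2097 and 4096. Of the 3, dl had no IDR summit while cact and Dif had 1 each.

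Genes of the ecdysone response, the hormone cascade that drives the onset of metamorphosis at this stage, were reached by below-list regions in 11 of 14 cases and by IDR peaks in 9, with 8 in common. The lowest ranks reached 5 of the 14, and of all protein-coding genes 10.5% were reached by below-list regions and 9.54% by the lowest ranks. Their median length was 55678 bp, and the part of length in this count was not tested. The genes held 33 below-list summits in all. The region in Eip75B shown above (pooled rank 2164) ranked 1890 in replicate 2 and 3723 in replicate 3. The one in an intron of Hr3, a nuclear receptor of the same cascade (2R:10211080-10211475, pooled rank 2186), ranked 3244 and 752, and it also lay in introns of CG12912 and CG46321. Hr3, Blimp-1 and MsrA were reached by below-list regions and not by IDR peaks.

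Below-list regions reached 10.5% of all protein-coding genes, whose median length was 2166 bp. Of 18 Polycomb and trithorax genes (median length 10286 bp), 7 were reached by below-list regions and 8 by IDR peaks, with 5 in common. Besides osa, they include trx, a histone methyltransferase (3R:14286315-14286710, pooled rank 2205, ranks 4205 in replicate 2 and 1565 in replicate 3), and Trl, which codes for GAGA factor (3L:14757047-14757442, pooled rank 2378, ranks 3780 and 1688). Among 14 genes of JNK and stress signalling (median length 6480 bp) 4 were reached, against 6 by IDR peaks. They were msn and cnc, the fly Nrf2 (ranks 949 in replicate 2 and 2688 in replicate 3), and, with no IDR summit, Gadd45 (ranks 7872 and 2630) and the TNF receptor grnd. Among 15 heat shock genes (median length 2231 bp) 4 were reached, against 6 by IDR peaks, and 1 was shared. Hsp22 and CG4456 overlap and were reached by the same region (3L:9373398-9373793, pooled rank 2944, ranks 2980 and 3058), and Hsp60A (pooled rank 3253) ranked 5517 and 1585. The lowest ranks reached 1 of the Polycomb and trithorax genes, 1 of the JNK and stress genes and 0 of the heat shock genes. The part of gene length in these counts was not tested.

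JAK-STAT signalling had 2 of 12 genes reached by below-list regions and 3 by IDR peaks, where 10.5% of all genes were reached by below-list regions. They were Socs36E, an inhibitor of the pathway with a gene of 13743 bp (2L:18150426-18150821, pooled rank 2353, ranks 1234 in replicate 2 and 3309 in replicate 3) and Ptp61F, a phosphatase with a gene of 132765 bp (3L:1349876-1350271, pooled rank 3902, ranks 2694 and 9801). Insulin and TOR signalling had 2 of 14, against 5 by IDR peaks. They were InR, the insulin receptor (pooled rank 2782, ranks 1454 and 12694), and foxo, the factor it restrains (pooled rank 3769, ranks 8939 and 2992). All 4 of these genes also held an IDR summit, and for each the replicates placed the below-list region differently. The lowest ranks reached 1 of the 12 JAK-STAT genes (median length 6524 bp). They reached 2 of the 14 insulin and TOR genes (median length 6102 bp), as many as the below-list regions did. The part of gene length in these counts was not tested.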

How the data were processed

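The deposited files are narrowPeak lists on builds dm6 and dm3: relaxed lists of 30000 regions, 1 per replicate and 1 from both together, and the list kept after IDR. Per the file listings deposited with the samples, these lists were made with a control alignment. Which aligner and which peak caller were used is not given in the sources used here. Signal values in the deposited lists are the authors' own. They served to order the regions of 1 list and were not compared across lists. The deposited −log10 q was turned into q values, and the deposited summit offset into summit positions counted from 1. The files hold no read counts, so depth is unknown and limits how far a low rank can be read.

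Genes were those of BDGP6.54 in Ensembl release 115. RefSeq (Release 6 plus ISO1 MT) gave the sequence. No region ended beyond a chromosome end (0 of the pooled list). Each summit was given 1 class by the first that applied of promoter, 5′ UTR, coding part, 3′ UTR, intron, a non-coding gene or none of these (intergenic). Shares have exact Clopper-Pearson 95% intervals and differences Newcombe 95% intervals. No p-value was computed, since the rule used the pooled signal and regions are not replicates. The replicates are called biological in the labels, and with 2 of them the spread is given as both values.

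Most named regions followed a fixed rule: the 10 highest ranks, the 5 with the best worse replicate rank, the 5 highest absent from a replicate list, up to 3 genes per gene list, the 3 genes with most summits and the 5 highest kB matches. Outside this rule, PGRP-LF, akirin, pirk, grnd, Blimp-1, MsrA, Mnt, CG1677 and Snoo were also named after their values were seen. So were the regions marked as such in the text. Sequences shown were the highest-ranked of their kind that met no UTR and lay on chromosomes shown here. One region is not reported here. The members, lists and strings were chosen with earlier results of these data known. Of 164 symbols in 10 gene lists, 3 were matched through older symbols, 1 duplicated another and 2 were not matched. Calculations ran in Python 3.11.15 with scipy 1.17.1, pandas 2.3.3 and numpy 2.4.6, and figures were drawn with matplotlib 3.10.9. The overlap, string and interval steps were tested on simulated data. Alternatives took each replicate's own list, parts of the rank range, other overlaps, windows and TSS distances, and build dm3.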

Additional observations from a re-analysis of the deposited data

How the results depend on the processing

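No paired analysis was possible because the 2 replicates belong to 1 group. Leaving out each replicate in turn, by taking the same ranks from the other's list, gave a promoter share of 36.2% to 41.0%, a coding share of 0.496% to 0.501%, a GA repeat share of 8.77% to 9.87%, a broad kB share of 1.20% to 1.34%, an X density ratio of 1.01 to 1.02, and 1003 to 1072 genes reached by below-list regions and not by the highest ranks. The share in the 4266 highest ranks of both replicates has no value with 1 replicate. The GA repeat share was 11.2% in ranks up to 3199 and 7.98% after it, and the share in the 4266 highest ranks of both replicates was 38.8% and 11.1%. Each part of the range reached fewer genes outside the IDR set (523 and 525), as fewer regions must. That replicate share was 20.9% when the overlap had to cover 50% of the region and 0.741% for the 2133 highest ranks. TSS distances of 250 and 1000 bp gave promoter shares of 27.4% and 47.6%. Windows of 50 and 200 bp either side gave 4.89% and 16.9% for the GA repeat and 0.445% and 2.92% for kB. These follow from the wider or narrower definitions. Build dm3, the q threshold and leaving out regions within 1000 bp of an IDR summit left the results they were run on inside their 95% intervals, or counts within 1.5 times. Of 51 alternative values, 36 stayed within those limits.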

Other observations

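Some features of the below-list regions were seen only after their values were known. The DNA replication-related element TATCGATA, common at promoters of housekeeping genes, was in 29 below-list windows (1.43%), against 20 IDR windows (0.938%), 14 of the lowest ranks (0.656%) and 0.837% of the pooled list. The difference from the lowest ranks was 0.776 percentage points (95% interval 0.157 to 1.45), and it was 1.33 and 0.675 points in the lists of replicates 2 and 3. Of the 29 matches, 26 were at the 740 promoter summits (3.51%, 95% interval 2.31 to 5.11). At promoter summits of the IDR peaks there were 19 of 888 (2.14%), and of the lowest ranks 6 of 269 (2.23%, 0.823 to 4.79). Among promoter summits the below-list and lowest-rank intervals thus overlapped. The core promoter string GGTCACACT was in 16 below-list windows (0.791%), against 0.375% of IDR windows, 0.141% of the lowest ranks and 0.343% of the pooled list. That order did not appear in the replicates' own lists, where the below-list share was 0.451% and 0.397% against 0.656% and 0.609% for the highest ranks. CAGGTAG, which Zelda binds, was in 1.33% of below-list windows, against 1.31% of IDR windows and 0.980% of the pooled list. The E-box CACGTG was in 2.32%, against 1.92% and 2.35%, and the AP-1 string TGACTCA in 1.98%, against 2.06% and 2.00%.

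Chromosome 4, the small and largely heterochromatic autosome, held 6 below-list regions, a density of 4.45 per Mb (exact Poisson 95% interval 1.63 to 9.69), against 6 IDR peaks and 16 of the lowest ranks (11.9 per Mb). The same ranks of replicate 2 held 6 and those of replicate 3 held 11 (8.16 per Mb). The whole pooled list was also sparser there, at 145 per Mb against 218 to 231 per Mb on the other chromosomes. Annotated transposable elements held 5 below-list summits (0.247%), against 2 IDR summits (0.0938%), 18 of the lowest ranks (0.844%) and 0.437% of the pooled list. In the list of replicate 2 there were 3 below-list summits (0.150%) against 4 of the highest ranks (0.188%). In that of replicate 3 there were 2 (0.0992%) against 3 (0.141%). These counts are too small to order the below-list regions and the highest ranks.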
